A study of Rattus norvegicus with 18 samples.

Results

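The cadherin and protocadherin genes were taken as all genes whose rat RefSeq symbol begins with Cdh or Pcdh, Cdh5 left out, and their data are the differentially methylated regions that the authors assigned to transcripts of these genes. The 4 full tables of the series held 201 such regions among 61661 in all, and they belonged to 32 genes. Of the 82 symbols that fit the rule in the RefSeq gene table, the other 50 had no region that mapped to them, among them Cdh4, Cdh11, Pcdh1, Pcdh8, Pcdh10 and Pcdh17. A list of called regions does not show which other regions were measured, so nothing can be read about the methylation of those genes.

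The samples were germ cells, named gonocytes in the labels, sorted from fetuses of Sprague-Dawley rats that carry the germ-cell-specific transgene GCS-EGFP. This transgene and strain are shared by all groups. The groups were males at gestational day (GD) 16 whose dams ate a high-fat diet (HFD, 45% of energy from fat; 4 samples), females at GD16 whose dams ate the HFD (3 samples), males at GD18 on the control diet (18% of energy from fat; 4 samples), males at GD16 on the control diet (4 samples) and females at GD16 on the control diet (3 samples). Each diet was given to 5 dams from the start of gestation, and the labels do not say how fetuses or litters were divided among the samples. The design text names 4 samples re-analysed from an earlier project without saying which group they form. DNA was captured with a rat panel of target regions and sequenced after bisulfite conversion, which leaves methylated cytosines as C. The tables give methylation and no RNA level, so the identity of the sorted cells was not checked against marker genes here.

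All levels below are the authors' group means of CpG methylation over a region, in percent, and differences are in percentage points. Values of single samples were not used here, so no spread between animals can be set beside a level, the depth behind it is unknown, and no test across samples was run. The words higher and lower refer to the authors' listing, and every listed region held at least 5 CpGs and a difference of at least 10 points. The authors' false discovery rates (FDRs) cannot be read as a measure of the spread between animals, as set out under the processing.

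Cadherins are transmembrane proteins that bind the same or similar cadherins on a neighbouring cell in the presence of calcium. The classical cadherins of types I and II link that contact to the actin skeleton through catenins, and E-cadherin (Cdh1) is present on primordial germ cells in mouse. The protocadherins fall into single genes, mostly known from brain, and into gene clusters in which each neuron picks a few members by promoter choice, a choice that in mouse is tied to DNA methylation of the promoters. In fetal germ cells most DNA methylation is erased before a new pattern is laid down.

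Few listed regions were placed at a promoter by the deposited annotation, in these genes or over all named genes. In the HFD male table it was 1 of 28 (3.57%), at Pcdhga11, against 4.85% of all regions of a named gene. In the table of control males against control females it was 3 of 166 (1.81%), at Pcdhb4, Pcdhgb8 and Cdh17, against 4.52%. The 3 clustered protocadherins among these 4 genes are shown because the annotation places a listed region at their promoters. RefSeq's promoter table (GRCr8) held these 3 of the 4 genes. The 250 bases before each start are written 5′ to 3′ on the plus strand of GRCr8, with every CG dinucleotide, the kind of site whose methylation the tables give, in capitals. The Pcdhga11 window lies at chr18:29834356-29834605, the Pcdhb4 window at chr18:29292040-29292289 and the Pcdhgb8 window at chr18:29839310-29839559. No source used here names the build of the deposited regions, so it is not known whether their CpGs are the ones in these windows.
Pcdhga11: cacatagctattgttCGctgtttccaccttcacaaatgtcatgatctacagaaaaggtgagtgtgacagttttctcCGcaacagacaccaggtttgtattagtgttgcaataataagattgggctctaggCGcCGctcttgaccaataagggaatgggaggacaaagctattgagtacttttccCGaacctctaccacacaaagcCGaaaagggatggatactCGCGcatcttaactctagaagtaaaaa
Pcdhb4: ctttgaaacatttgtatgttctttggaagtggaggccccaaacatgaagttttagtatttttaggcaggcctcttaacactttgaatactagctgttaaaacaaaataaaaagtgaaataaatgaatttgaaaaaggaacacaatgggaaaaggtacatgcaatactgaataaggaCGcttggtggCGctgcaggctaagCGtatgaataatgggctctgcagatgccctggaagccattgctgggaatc
Pcdhgb8: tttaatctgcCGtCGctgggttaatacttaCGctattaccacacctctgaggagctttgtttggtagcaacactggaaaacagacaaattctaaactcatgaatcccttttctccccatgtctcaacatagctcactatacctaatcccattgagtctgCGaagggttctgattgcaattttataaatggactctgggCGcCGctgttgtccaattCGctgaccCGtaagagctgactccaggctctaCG

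The Pcdhga11 window held 8 CG dinucleotides, that of Pcdhgb8 9 and that of Pcdhb4 3, against a median of 5 (quartiles 2 and 15) over the 33469 promoters of the table cut to the same length. The letters CGCT, the core of an element shared by clustered protocadherin promoters, each hold 1 of these CGs. On the strand shown they occurred 2 times at Pcdhga11, 2 times at Pcdhb4 and 4 times at Pcdhgb8, and on the other strand 1 time at Pcdhb4. At least 1 CGCT on either strand was present in 27 of the 35 clustered protocadherin promoters (77.1%) and in 55.1% of all promoters. So short a motif is common, and a match is a description of the sequence only.

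Control males and control females at GD16 differed at most of the 32 genes that had a region in any table. The authors' table listed 166 regions at 30 of the 32 genes (93.8%), where 94.9% of all named genes with a region in any table had one here. This share is high by construction, because this comparison itself supplied 166 of the 201 regions. Of all 82 symbols that fit the rule, 30 had a region here. Methylation was higher in control males at 165 of the 166 regions (99.4%), and over the whole table at 99.7%. At the male-higher regions the median was 19.4% in control males and 4.5% in control females, with ranges of 12.4 to 43.0% and 0.0 to 13.6%, against medians of 19.6% in control males and 4.7% in control females over all male-higher regions. The difference reached 20 points in 18.1% of the cadherin and protocadherin regions and in 17.4% of all regions, so neither its direction nor its size set these genes apart from the table.

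**Figure D1:**
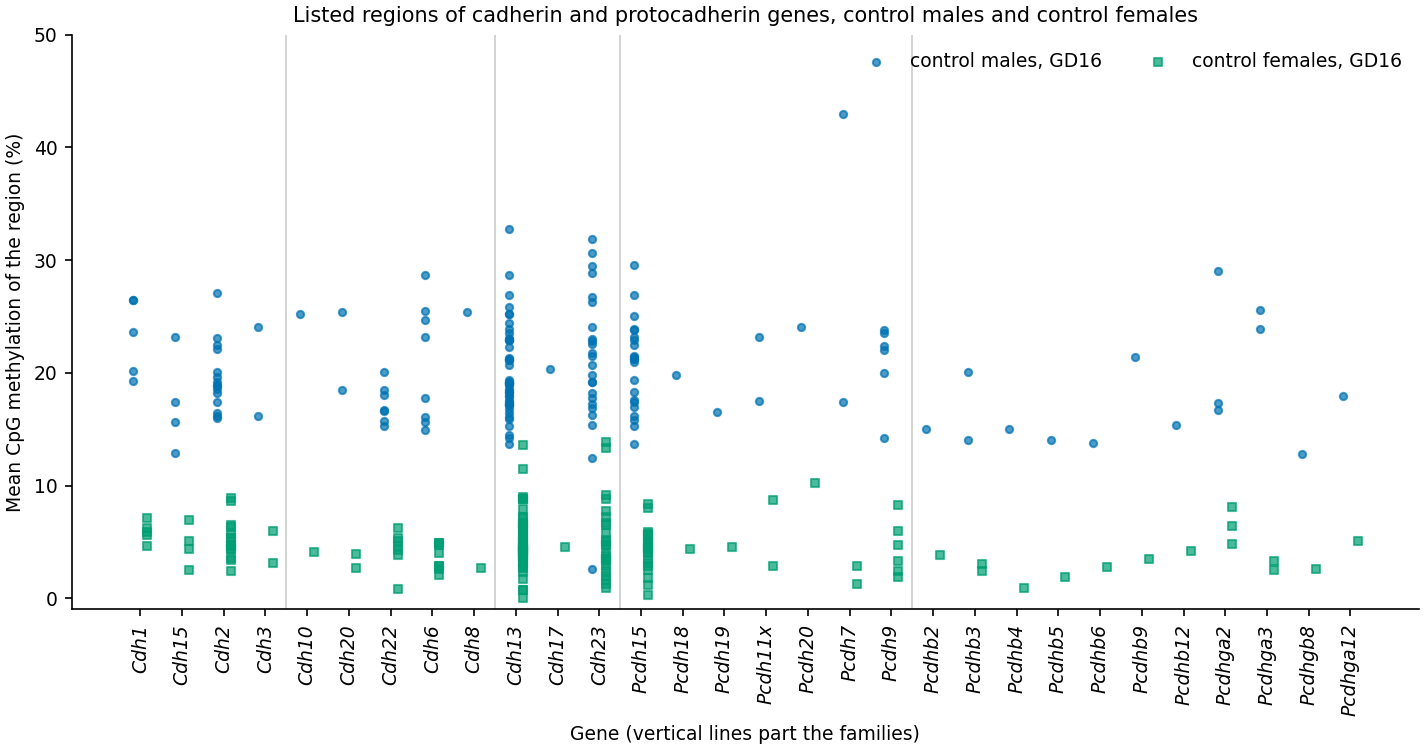
Mean CpG methylation in percent of each listed region, with control males as circles and control females as squares, for the 30 genes with a region in the comparison of control males with control females at GD16; each gene's 2 columns hold its regions, and vertical lines part type I, type II and other cadherins from non-clustered and clustered protocadherins. The male-higher regions lie at 12.4 to 43.0% in control males and at 0.0 to 13.6% in control females, and the lowest circle, at 2.6% over Cdh23, is the female-higher region.

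Among the classical type I cadherins, 26 regions of 4 genes were listed and all were higher in control males. Cdh2, the N-cadherin of neural and Sertoli cells, had 15 of them, which ran over 215 kb of chromosome 18 with 16 to 27.1% in control males and 2.4 to 8.9% in control females. In Cdh1 all 5 regions lay in exons, a feature that made up 14.5% of the 166 regions. They had 19.3 to 26.5% in control males and 4.6 to 7.1% in control females, and the widest difference was 26.5% in control males against 4.6% in control females over 6 CpGs (chromosome 19, 38832059 to 38832368) in the authors' deposited table. Cdh3, the P-cadherin gene that lies beside Cdh1, had 24.1% in control males and 3.1% in control females in its 3' UTR, per the authors' deposited table, and an exon had 16.2% in control males and 6.0% in control females. Cdh15, the M-cadherin of muscle, had 4 regions with 12.9 to 23.2% in control males and 2.5 to 6.9% in control females.

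The type II cadherins, which are known mainly from brain and, for Cdh6, from kidney, gave 19 regions at 5 genes, again all higher in control males. The 8 Cdh6 regions had 14.9 to 28.7% in control males and 2.1 to 4.9% in control females. Cdh8 had 1 region, in an intron, with 25.4% in control males and 2.7% in control females in the authors' deposited table. The single Cdh10 region, in the 3' UTR, had 25.2% in control males and 4.1% in control females over 17 CpGs in the authors' deposited table. At Cdh22 the 7 regions included the only 5' UTR region of the set, with 18.5% in control males and 0.8% in control females (chromosome 3, 161917431 to 161917654) in the authors' deposited table. Cdh20 had 2 intron regions, with 25.4% and 18.5% in control males, against 3.9% and 2.7% in control females, in the authors' deposited table.

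Most of the regions lay in 4 long genes, Cdh13, Cdh23, Pcdh15 and Cdh2, with 107 of the 166 (64.5%), whereas 14 genes had 1 each. Cdh13 encodes T-cadherin, which is held in the membrane by a lipid anchor and binds adiponectin. Its 46 regions were spread over 1.09 Mb of chromosome 19, with a median of 11.3 kb and at most 118 kb between neighbours. Control males had 13.7 to 32.8% there (median 19.1%) and control females 0.0 to 13.6% (median 4.6%). The largest difference, 32.8% in control males and 7.1% in control females, lay in an intron (chromosome 19, 51637945 to 51638163), and the last 2 regions, in the 3' UTR and at the transcript end, had 19.2% and 23.5% in control males, against 4.7% and 3.9% in control females, in the authors' deposited table. In the plot of Cdh13 regions by distance, every control male mean lies above the highest control female mean.

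**Figure D2:**
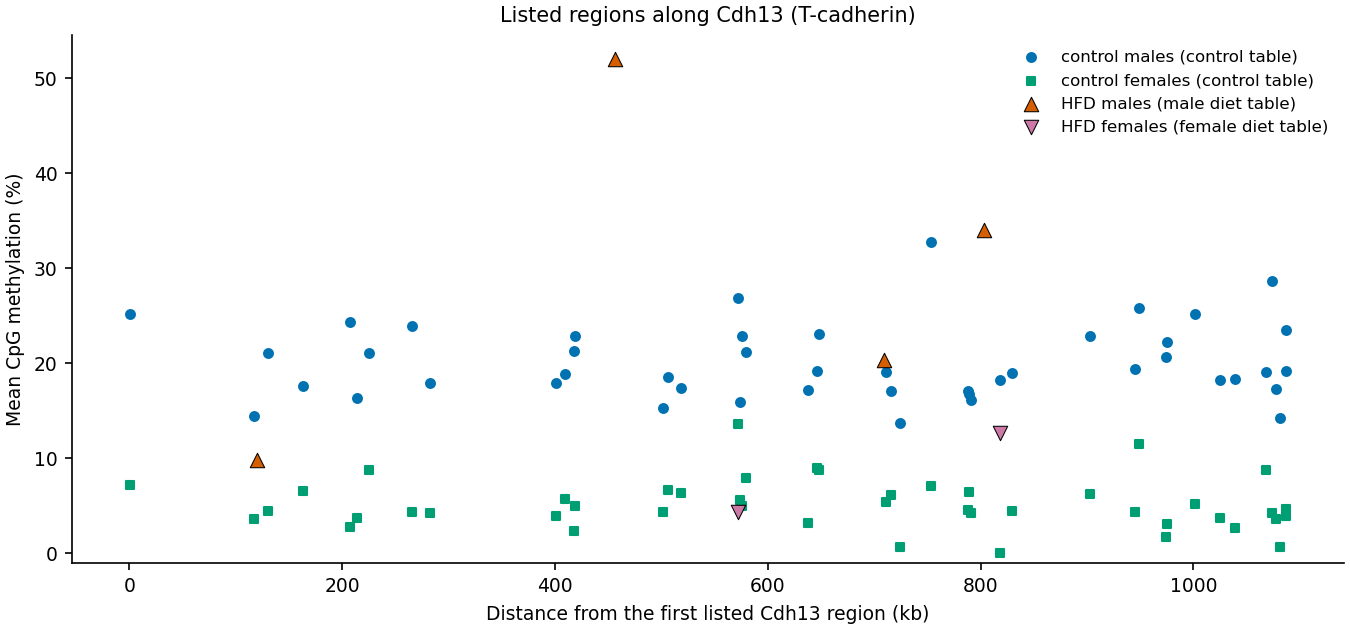
Mean CpG methylation in percent of listed regions along Cdh13, by distance in kb from the first listed region; circles and squares are control males and control females in their common table (46 regions), and triangles are HFD males (4 regions, pointing up) and HFD females (2 regions, pointing down) in the diet tables. The circles lie at 13.7 to 32.8% and the squares at 0.0 to 13.6% along the whole gene, and the highest triangle is an HFD male region at 52.0%.

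Cdh23 and Pcdh15 encode the proteins of the tip link, the thread that opens the channels of hair cells in the inner ear. All 22 Pcdh15 regions were higher in control males, with a median of 21.2% in control males against 4.4% in control females and a widest difference of 29.6% in control males against 2.5% in control females in an intron (chromosome 20, 15019438 to 15020079) in the authors' deposited table. One of them, with 23.2% in control males and 8.0% in control females over 11 CpGs in the authors' deposited table, was the only region of the set that the annotation places in a CpG island. Cdh23 had 23 male-higher regions, led by an intron at chromosome 20, 29875444 to 29875523, with 30.6% in control males and 2.4% in control females in the authors' deposited table. It also had the 1 female-higher region of the set, an intron of 5 CpGs at chromosome 20, 30078823 to 30078893, with 2.6% in control males and 13.9% in control females in the authors' deposited table. The region before it, 1158 bp away and also of 5 CpGs, went the other way with 24.1% in control males and 1.3% in control females in the authors' deposited table. Cdh17, the liver and intestine cadherin, had 20.3% in control males against 4.5% in control females at its promoter in the authors' deposited table.

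The single protocadherin genes besides Pcdh15 had 13 regions at 6 genes, each higher in control males. An intron of Pcdh7 showed the largest difference of all 166 regions, with 43.0% in control males and 2.9% in control females over 5 CpGs (chromosome 14, 55031368 to 55031601) in the authors' deposited table. Pcdh9 had 6 regions over 635 kb, among them exon regions of 22 and 11 CpGs with 22.4% and 23.8% in control males, against 2.4% and 4.7% in control females, in the authors' deposited table. The X-linked genes Pcdh11x and Pcdh19, the second of which is an epilepsy gene in human, had 23.2% and 16.5% in control males, against 8.7% and 4.5% in control females, each over exon sequence, per the authors' deposited table. Single regions in exons of Pcdh20 (24.1% in control males, 10.2% in control females) and Pcdh18 (19.8% in control males, 4.4% in control females) completed the group in the authors' deposited table.

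The clustered protocadherins had 15 regions at 11 genes, 7 of the beta and 4 of the gamma cluster, over 548 kb of chromosome 18. All were higher in control males, with a median of 16.7% in control males against 3.3% in control females. Over the other 151 regions the medians were 19.6% in control males and 4.5% in control females. Exons made up 8 of the 15 regions, and these were long and rich in CpGs, with a median of 24 CpGs and 832 bp against 10.5 CpGs and 465 bp in the 16 exon regions of the other genes. The longest were those of Pcdhb12, with 15.4% in control males and 4.2% in control females over 48 CpGs, Pcdhb6, with 13.8% in control males and 2.8% in control females over 42 CpGs, and Pcdhb2, with 15.0% in control males and 3.8% in control females over 36 CpGs, in the authors' deposited table. In these genes 1 large exon codes for the extracellular part of each protein.

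**Figure D3:**
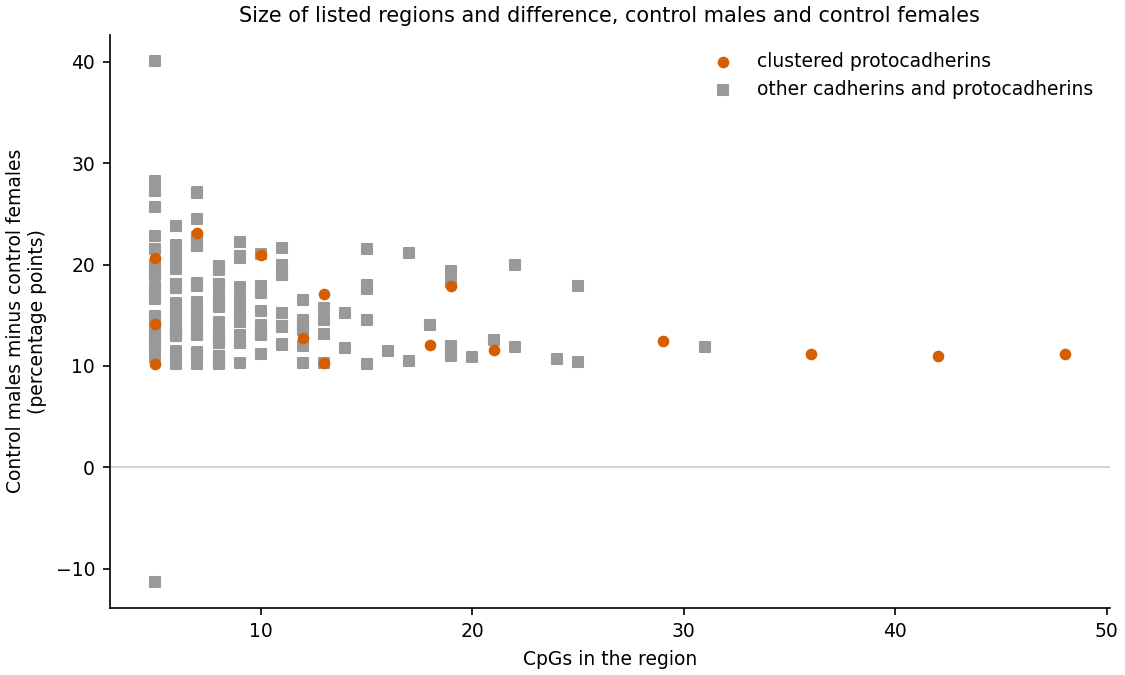
Difference between control males and control females in percentage points against the number of CpGs in each of the 166 listed regions, with circles for clustered protocadherins and squares for the other cadherins and protocadherins. The regions with the most CpGs, 36 to 48, are clustered protocadherin exons with differences of 11.0 to 11.2 points, and the largest difference, 40.1 points at Pcdh7, comes from 5 CpGs; regions under 10 points in either direction are not listed.

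At the regions annotated to the promoters of Pcdhb4 and Pcdhgb8, the means were 15.0% in control males and 0.9% in control females at Pcdhb4 (chromosome 18, 30386928 to 30387564) and 12.8% in control males and 2.6% in control females at Pcdhgb8 (chromosome 18, 30908183 to 30908707), each over 5 CpGs, in the authors' deposited table. These CpGs need not be those in the windows printed above. The widest differences of the clusters lay in an intron of Pcdhga3 (25.6% in control males, 2.5% in control females) within an LTR repeat and in an intron of Pcdhga2 (29.0% in control males, 8.1% in control females) in the authors' deposited table. Exon regions of Pcdhb9, Pcdhb3 and Pcdhb5 had 21.4%, 20.1% and 14.0% in control males, against 3.5%, 3.0% and 1.9% in control females, in the authors' deposited table. The Pcdhga12 intron had 17.9% in control males and 5.1% in control females in the authors' deposited table. Transcripts of the gamma cluster share their last exons and overlap in the genome, so an intron region named after 1 gamma gene can lie within others as well.

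Maternal HFD in males was listed with 28 regions at 14 of the 32 genes (43.8%), where 35.6% of all named genes had one. Of these regions 21 were lower and 7 higher in HFD males. The lower share, 75.0%, was close to the 74.0% of all regions in the table, so the direction was that of the table as a whole. At the lower regions the median was 9.3% in HFD males and 23.4% in control males, and over all lower regions 10.3% in HFD males and 25.2% in control males. At the higher regions the median was 30.1% in HFD males and 12.5% in control males, and over all higher regions 27.7% in HFD males and 10.5% in control males. Differences ran from -26.7 to 22.1 points, and over the far larger number of all regions from -96.0 to 98.7 points. The quartiles over all regions were -19.5 and -11.3 points at the lower ones and 12.0 and 23.1 points at the higher ones. Of the 28 regions 5 (17.9%) reached 20 points, against 26.5% of all, a gap that rests on few regions and was not tested.

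**Figure D4:**
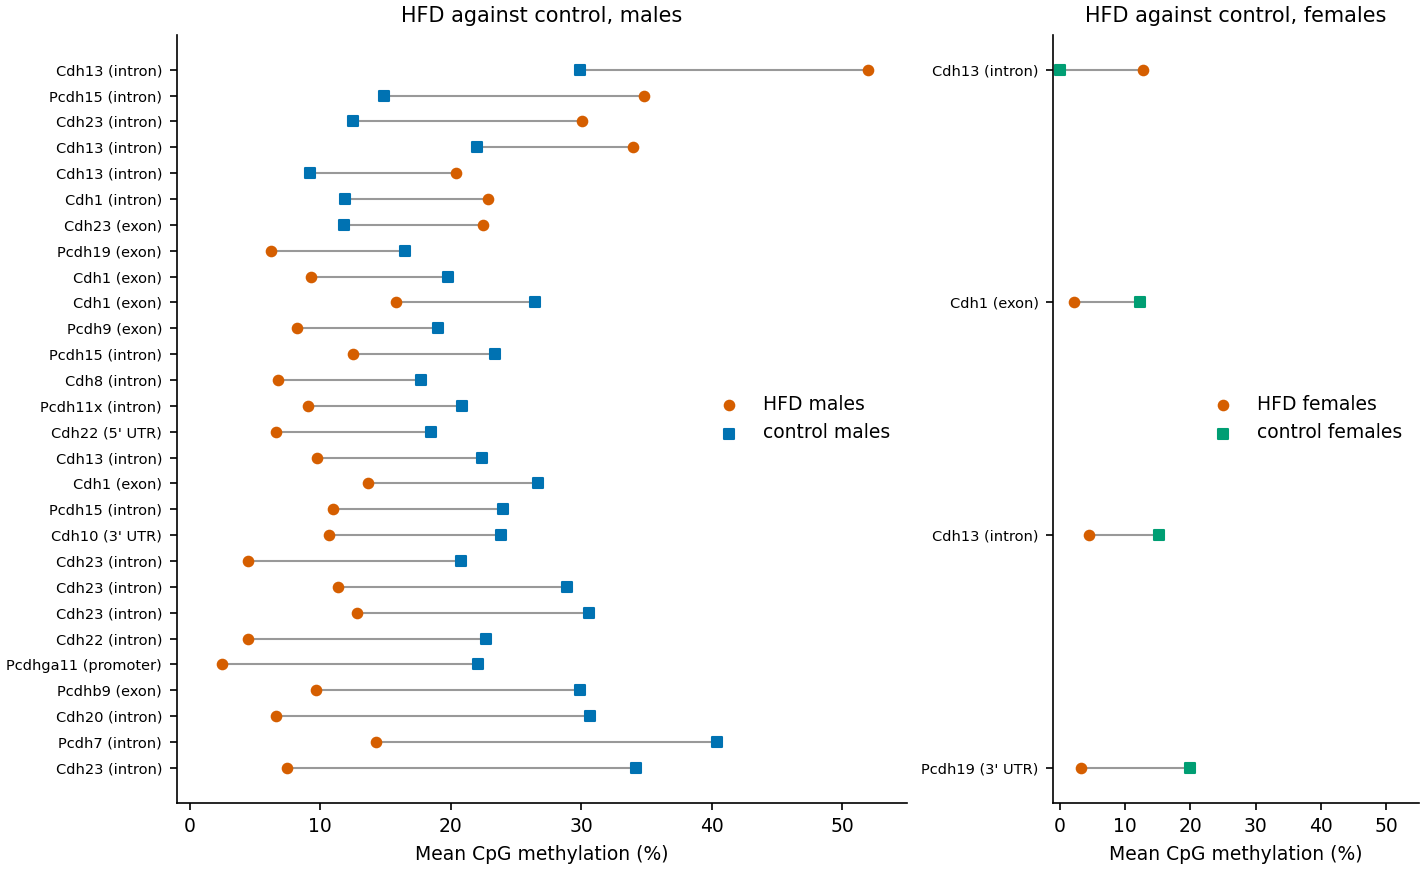
Mean CpG methylation in percent of each listed region on maternal HFD (circles) and on control diet (squares) at GD16, in males on the left (28 regions) and females on the right (4 regions), with the gene and its annotated feature on the vertical axis and regions sorted by difference. In males the 21 lower regions lie at 2.5 to 15.8% on HFD and 16.5 to 40.4% on control diet, and the 7 higher ones at 20.4 to 52.0% on HFD and 9.2 to 29.9% on control diet.

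The type I cadherins were represented by Cdh1 alone, with 4 regions. Its 3 exon regions were lower in HFD males, with 15.8%, 13.7% and 9.3% in HFD males, against 26.5%, 26.7% and 19.8% in control males, over 9, 8 and 12 CpGs in the authors' deposited table. Between them, an intron region of 6 CpGs (chromosome 19, 38833503 to 38833839) was higher, with 22.9% in HFD males and 11.9% in control males in the authors' deposited table. Type II cadherins had 5 regions at 4 genes, and all 5 were lower in HFD males, where 74.0% of all regions in the table were lower. Cdh20 had 6.6% in HFD males and 30.7% in control males in an intron (chromosome 13, 24903990 to 24904043) in the authors' deposited table. Cdh22 had 4.5% in an intron and 6.6% in its 5' UTR in HFD males, against 22.7% and 18.5% in control males, in the authors' deposited table. Cdh10 had 10.7% in HFD males and 23.9% in control males in its 3' UTR in the authors' deposited table. The smallest of the 5 was an intron of Cdh8 with 6.8% in HFD males and 17.7% in control males in the authors' deposited table.

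Both directions were seen at Cdh13, Cdh23, Pcdh15 and Cdh1, which together held 17 of the 28 regions and all 7 rises, while the other 10 genes had 11 regions, all lower. The former are the genes with the most regions here, and how often other genes with several regions went both ways was not computed. Of the 7 rises, 4 had an FDR of at most 0.01 in the authors' deposited table, and the only rise at Cdh1 had 0.0274. Cdh13 had 3 higher regions and 1 lower, all in introns. The largest rise of the set was among them, with 52.0% in HFD males and 29.9% in control males over 5 CpGs (chromosome 19, 51340934 to 51341020) in the authors' deposited table. The other 2 rises had 34.0% and 20.4% in HFD males, against 22.0% and 9.2% in control males, and the fall had 9.8% in HFD males and 22.4% in control males in the authors' deposited table. Cdh23 had 2 higher and 4 lower regions, and its lower intron at chromosome 20, 29934281 to 29934519 was the largest fall of the set, with 7.5% in HFD males and 34.2% in control males over 8 CpGs in the authors' deposited table. The other 3 falls had 12.8%, 11.4% and 4.5% in HFD males, against 30.6%, 28.9% and 20.8% in control males, in the authors' deposited table. Its rises, in an intron and in an exon of 14 CpGs, had 30.1% and 22.5% in HFD males, against 12.5% and 11.8% in control males, in the authors' deposited table. Pcdh15 rose in 1 intron (34.8% in HFD males, 14.9% in control males) and fell in 2 (11.0% and 12.5% in HFD males, 24.0% and 23.4% in control males) in the authors' deposited table.

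The protocadherins besides Pcdh15 were lower in HFD males wherever they were listed, with 1 region each, where 74.0% of all regions in the table were lower. Pcdh7 had 14.3% in HFD males and 40.4% in control males in an intron in the authors' deposited table, at the region that also led the comparison of control males with control females. An exon of Pcdh9 with 32 CpGs, the most of the 28 regions, had 8.2% in HFD males and 19.0% in control males in the authors' deposited table. The X-linked genes, with an intron of Pcdh11x (16 CpGs) and an exon of Pcdh19 (12 CpGs), had 9.1% and 6.2% in HFD males, against 20.9% and 16.5% in control males, in the authors' deposited table. The clustered genes gave 2 regions. One was annotated to the Pcdhga11 promoter (chromosome 18, 30904037 to 30904194), with 2.5% in HFD males, the lowest HFD level of the 28, and 22.1% in control males over 5 CpGs, at an FDR of 0.0186 in the authors' deposited table. Its CpGs need not be those in the Pcdhga11 window printed above. The second was an exon of Pcdhb9 with 9.7% in HFD males and 29.9% in control males over 5 CpGs per the authors' deposited table.

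At 16 of the 28 male diet regions, a region of the control male and female table overlapped by 1 bp or more, so that 3 groups can be set side by side. The 2 tables share the control male samples, and a region with a high mean in control males is more easily listed in both, so no overlap statistic is given. The share of all male diet regions with such an overlap was not computed, so the count of 16 shows nothing particular to these genes. At the 15 of these regions that were lower in HFD males, the means had medians of 10.7% in HFD males, 26.5% in control males and 3.9% in control females. Ranges were 6.2 to 15.8% in HFD males, 16.5 to 40.4% in control males and 0.8 to 8.7% in control females, and at each of the 15 the HFD male mean lay above the control female mean. The margin was small in places, with 9.1% in HFD males and 8.7% in control females at Pcdh11x. How often this order held over all overlapping male diet regions was not computed, so it shows nothing particular to these genes. Medians over the whole tables were 10.3% in HFD males at all lower regions and 4.7% in control females at all male-higher regions. That control males were highest follows largely from what the 2 tables list. The limits of the 2 regions often differed, as at Cdh20 with 7 CpGs in the male diet region and 15 in the other. No deposited comparison sets HFD males against control females. At the Cdh1 exon with the same coordinates in both tables (chromosome 19, 38827734 to 38828047), the means were 15.8% in HFD males, 26.5% in control males and 5.9% in control females in the authors' deposited tables. The Cdh22 5' UTR and the Cdh23 intron at 29875444 to 29875523 had 6.6% and 12.8% in HFD males, 18.5% and 30.6% in control males, and 0.8% and 2.4% in control females, in the authors' deposited tables. The Pcdh15 intron was the exception, with 34.8% in HFD males, 14.9% in control males and 5.6% in control females in the authors' deposited tables. The Pcdhb9 regions overlap by 5 bp only, so their CpGs are largely different ones.

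**Figure D5:**
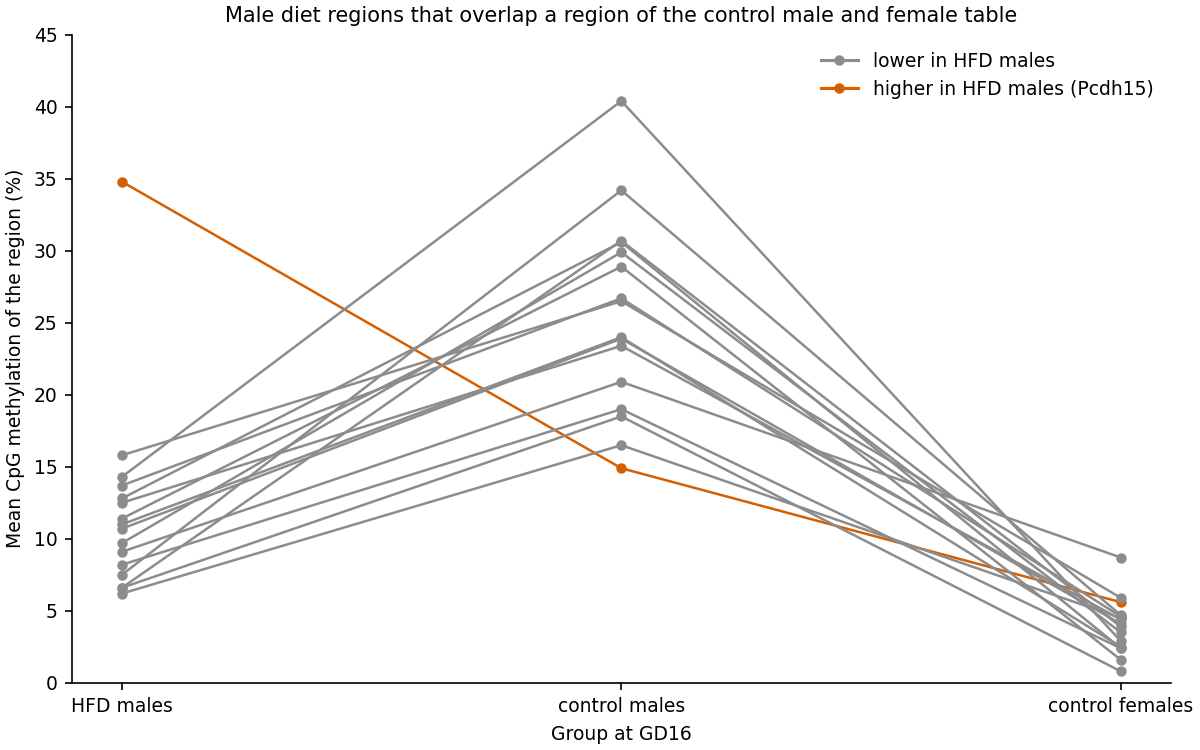
Mean CpG methylation in percent in HFD males, control males and control females at GD16, with 1 line for each of the 16 male diet regions that overlap a region of the control male and female table; the first 2 values come from the male diet table and the third from the overlapping region, whose limits can differ. The 15 grey lines peak in control males at 16.5 to 40.4%, and the line of Pcdh15 starts at 34.8% in HFD males. The peak follows largely from the choice of regions, listed as lower in HFD males and as higher in control males than in control females.

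Maternal HFD in females was listed with 4 regions at 3 of the 32 genes (9.38%), where 8.37% of all named genes had one. Of these 3 were lower in HFD females, 75.0% against 71.7% of all regions in that table. Cdh1 had 2.1% in HFD females and 12.3% in control females over 12 CpGs of an exon (chromosome 19, 38836358 to 38836796) in the authors' deposited table. The male table listed exactly this region too, at 9.3% in HFD males and 19.8% in control males, and it was the 1 region of these genes listed for diet in both sexes. The share of all diet regions listed in both sexes was not computed. Pcdh19 had 3.3% in HFD females and 20% in control females in its 3' UTR in the authors' deposited table, 784 bp from the exon region listed in males. Cdh13 had an intron at 4.4% in HFD females and 15.2% in control females (chromosome 19, 51457092 to 51457195) and another at 12.7% in HFD females and 0.0% in control females (chromosome 19, 51703159 to 51703622) in the authors' deposited table. At the second of these, control males had 18.2% in the authors' deposited table of control males and control females. Whether the diet effect differed between the sexes was not tested, since that needs values per sample.

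Males at GD18 were compared with females at GD16, both on the control diet, so age and sex cannot be told apart there. The table held 3 regions at 2 of the 32 genes (6.25%), where 7.5% of all named genes had one, and 2 of the 3 were lower in GD18 males (66.7%), against 92.5% of all regions. Pcdhga5, of the gamma cluster, had 2.2% in GD18 males and 12.9% in GD16 females in an intron (chromosome 18, 30858472 to 30858720) in the authors' deposited table. Cdh23 had an intron at 5.6% in GD18 males and 21.8% in GD16 females (chromosome 20, 30162822 to 30163516) and another at 13.9% in GD18 males and 1.3% in GD16 females (chromosome 20, 30077334 to 30077664) in the authors' deposited table. That second region was listed at GD16 too, with 24.1% in control males and the same 1.3% in control females in the authors' deposited table. With 3 regions the shares say little.

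Partners and relatives of the cadherins were read from a list of 31 genes. It held 11 catenins and plakophilins as partners, and as relatives 7 desmosomal cadherins and 13 cadherin superfamily genes with other symbols. Most of its regions lay at the relatives. The partners had 22 of the 109 regions between control males and control females, and 4 of the 25 in HFD males. Between control males and control females, 109 regions at 20 of these genes were listed and all were higher in control males, with medians of 19.5% in control males and 4.8% in control females. Of all regions in that comparison, 99.7% were higher in control males, so the direction was again that of the whole table. Among named genes with a region in any table, 94.9% had one in this comparison, a share over fewer genes than a list that also counts genes without any region. β-catenin (Ctnnb1), which binds classical cadherins and carries Wnt signals, had 17.9% in control males and 4.6% in control females at its widest difference in the authors' deposited table. αE-catenin (Ctnna1), the link to actin, had 23.3% in control males and 2.6% in control females in the authors' deposited table. In HFD males 25 regions at 13 of the 31 genes were listed, 17 lower and 8 higher, where 74.0% of all regions in the table were lower. Of named genes with a region in any table, 35.6% had one in HFD males. Fat1, a giant cadherin, had 6 lower and 2 higher regions, among them an exon at 62.2% in HFD males and 7.0% in control males in the authors' deposited table. Clstn1, a calsyntenin, had 2 regions each way, the widest at 50.4% in HFD males and 7.1% in control males in the authors' deposited table. The catenins were split, with 2 regions lower and 2 higher in HFD males. Plakoglobin (Jup) and Ctnna1 had 12.0% and 9.7% in HFD males, against 22.4% and 20.7% in control males, in the authors' deposited table. Ctnna2 and Ctnnd2, a neural α-catenin and a neural member of the p120 catenins, had 35.7% and 26.6% in HFD males, against 8.1% and 15.9% in control males, in the authors' deposited table. In HFD females 3 regions at 2 of the 31 genes were listed, 1 lower and 2 higher, where 71.7% of all regions in that table were lower and 8.37% of named genes had a region. In GD18 males 4 regions at 4 of the 31 genes were listed, all lower, where 92.5% of all regions were lower and 7.5% of named genes had a region. The shares of 35.6%, 8.37% and 7.5% are over named genes with a region in any table. The 31 include genes without any region, so their counts cannot be compared with those shares.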

How the data were processed

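The labels give 18 samples in 5 groups. Per the submitters' processing notes, Bowtie2 and Bismark 0.19.0 were among the tools. The series' design text tells of methylation calls per locus, of segments with a minimum length and of a search for differing regions. No source used here gives the genome build. Per the file headers, each of the 4 full tables holds, for a region, the mean methylation fraction of 2 groups, a value the authors had averaged already (given here in percent), their signed difference, a score deposited by the authors, and a p-value and an FDR deposited by the authors. The header names a two-sample test. Its unit is not given, so the FDRs cannot be read as a measure of the spread between animals. No value per sample was used, so no test, interval or replicate error is given. The number of CpGs and the length were used as deposited. Regions of the intergenic class carry no gene.

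Transcript identifiers, after removal of a stray bracket from 454 of them, were matched to RefSeq symbols (GRCr8 table, names only); 94.1 to 94.7% of identifiers per table matched, and all 32 genes lay on the same chromosome in both. Regions overlap where they share 1 bp. The members and lists were chosen with earlier results of these data known. Named were, per comparison, the 10 genes with the largest differences each way, the 5 with most regions, up to 10 promoter, 5' UTR, exon or CpG island regions, genes in at least 3 tables, and all genes where a table held 10 or fewer; other genes were named after their values were seen. A percentage in brackets after a count is over the total named with that count. The shares set against these are mostly over all regions or named genes. Scripts ran under Python 3.11.15 with matplotlib 3.10.9 and pandas 2.3.3, and the symbol rule was tested on made-up symbols.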

Additional observations from a re-analysis of the deposited data

How the results depend on the processing

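The number of listed regions shrank with stricter limits. With differences of at least 20 points, 5 regions were left for diet in males, 0 for diet in females, 30 for control males against control females and 0 for GD18 males. With at least 10 CpGs, 8, 1, 65 and 0 were left in the same order, and with an FDR of at most 0.01 diet in females kept 1. The share of higher regions became 0% for diet in females under the limits on CpGs and FDR, each on that 1 region, and 100% for control males against control females at 20 points and at 10 CpGs, where the female-higher Cdh23 region dropped out. Over all regions these shares were 26.0% and 28.2% for diet in females, and 99.2% and 99.9% for control males against control females. For diet in males the share of higher regions was 25%. It became 20% at 20 points (1 of 5), 12.5% at 10 CpGs (1 of 8) and 18.2% at an FDR of at most 0.01 (4 of 22). Over all regions of that table it was 26.0%, and it became 34.9%, 16.4% and 24.7% under the same limits. For GD18 males the share of higher regions was 33.3%, and it became 50% at that FDR, with 2 regions left. Over all regions it was 7.54% and became 9.25%. Leaving out intergenic regions or Cdhr genes could not change any count or share, so neither setting was a check. Intergenic regions carry no gene, and no Cdhr gene had a listed region. No share could be formed where 0 regions were left. No paired analysis was possible because the tables hold group means without replicates, and for the same reason no replicate could be left out. Depth per region is unknown, regions of 5 CpGs give the coarsest means, and a table of called regions cannot show which genes kept their methylation.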

Other observations

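Of the 7 regions higher in HFD males, 2 (28.6%) lay in an ID_Rn2 SINE repeat, 1 in an intron of Cdh13 (34.0% in HFD males, 22.0% in control males) and 1 in an intron of Cdh23 (30.1% in HFD males, 12.5% in control males), in the authors' deposited table. None of the 21 lower regions did. Over all named genes, SINE repeats held 4.65% of the higher and 2.89% of the lower regions, and with 7 regions the difference was not tested.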
